A study of Mus musculus with 6 samples.

Results

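The S100 calcium-binding proteins were examined as 9 genes, S100a1, S100a3, S100a4, S100a6, S100a10, S100a11, S100a13, S100a16 and S100b, chosen by symbol from the 29955 genes of the expression table. RNA-seq had been made from 3 libraries of Rnf40+/+ and 3 libraries of Rnf40-/- mouse embryonic fibroblasts (MEFs), and the comparison asks how the loss of the ubiquitin ligase RNF40 affects gene expression. All were primary cells at passage 3. The knockout cells came from embryos homozygous for loxP-flanked Rnf40 that also carry Rosa26-CreERT2, a Cre recombinase expressed in nearly all cells and switched on by tamoxifen, and Rnf40 was deleted in culture with 250 nM 4-hydroxytamoxifen (4-OHT) for 5 days followed by 3 days without it. For the Rnf40+/+ libraries the sources used here name neither the Cre and loxP alleles nor a 4-OHT treatment, so deletion and treatment cannot be told apart. Nothing states whether the 3 libraries of a genotype came from separate embryos, and p-values measure the spread between these libraries, which may be technical.

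S100 proteins are small vertebrate proteins with EF-hand calcium-binding loops that mostly work as dimers. Calcium opens a surface through which they bind annexins, myosin, tubulin and other targets inside the cell, and several are secreted and bind surface receptors such as RAGE. Most S100 genes sit side by side in the epidermal differentiation complex, a gene region also rich in skin barrier genes, whereas S100b lies elsewhere. In fibroblasts S100a4, also called FSP1 (fibroblast-specific protein), and S100a6 (calcyclin) are known as abundant members.

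The deposited values are read counts scaled by a size factor of each library, called normalized counts here. The libraries held between 17053436 and 26344170 reads on genes in Rnf40+/+ and between 18115481 and 20495627 in Rnf40-/- MEFs, and 3 reads were worth between 2.40 and 3.58 normalized counts. Rnf40 itself had normalized counts of 1278, 1195 and 1096 in Rnf40+/+ and of 439, 519 and 487 in Rnf40-/- libraries, with a log2 fold change of -1.30 and an adjusted p of 4.25e-07 by limma. Fold changes are on the scale of log2(normalized count + 1), where the change of low genes depends on the added 1. Adjusted p-values are from limma with the Benjamini-Hochberg method across the 16378 genes that passed a filter on low counts. Genes with an adjusted p under 0.05 are called changed, and such calls covered 47.4% of the genes tested.

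All 9 genes were tested, but S100b reached the count filter in only 1 of 3 Rnf40+/+ libraries and passed through the Rnf40-/- libraries, where it was higher. Of the 8 genes that reached the filter in every library, 4 rose (S100a1, S100a3, S100a10 and S100a13), 3 fell (S100a4, S100a11 and S100a16) and S100a6 was not called. Among all genes tested, 23.3% rose and 24.1% fell, and the calls were 66.6% of the genes with a mean above 5000, where 4 of the 9 members lie. The ranges of the genotypes did not overlap for 7 of these 8 genes, where that held for 56.5% of the genes tested. The changed members thus went in both directions, and among the 4 most abundant ones S100a10 rose, S100a4 and S100a11 fell and S100a6 was not called. By the stricter thresholds of a mean above 15, an unadjusted p under 0.05 and a log2 fold change beyond 1 in either direction, only S100a3 and S100b of the 9 genes passed as higher and 0 as lower. Those thresholds passed 4.25% of the genes tested as higher and 5.7% as lower.

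**Figure D1:**
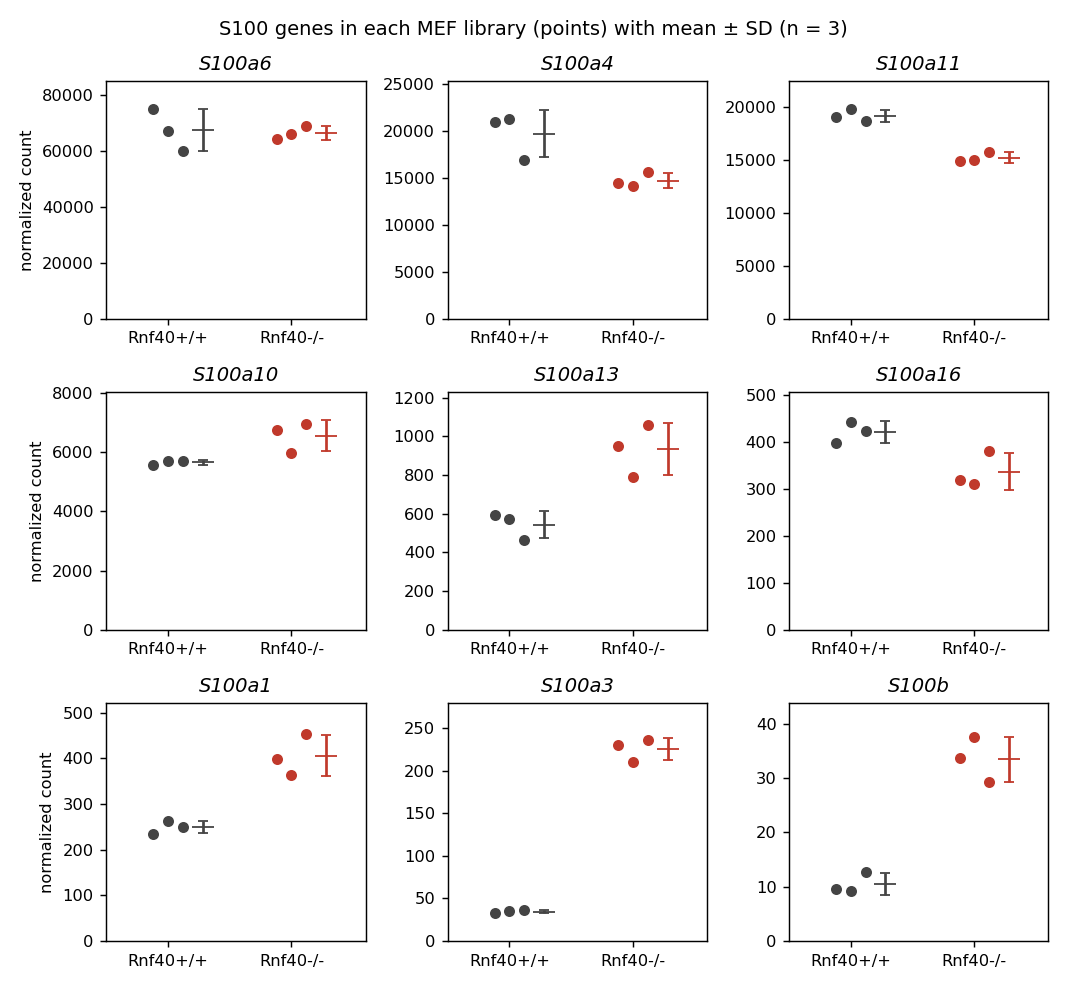
Normalized counts (y axis, from 0, a scale for each gene) of the 9 S100 genes in each Rnf40+/+ (grey) and Rnf40-/- (red) library, with the mean and SD of the 3 libraries beside the points. Of the 8 genes at the filter in every library, the genotypes overlap for S100a6 and are apart for 7, as for 56.5% of all genes tested. S100b is apart too but passed the filter only through the Rnf40-/- libraries. S100a3 lies between 32.2 and 36.7 against 211 to 236 normalized counts.

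S100a3, S100a4, S100a11 and the pair S100a1 and S100a13 carry the main contrasts: the largest rise among the 9 genes, the falls of abundant genes and the joint rise of neighbours. Their promoter windows are shown for that reason, each running from 250 bases before to 50 bases after a RefSeq transcription start. The windows come from RefSeq starts on GRCm38.p6 and were placed on mm9 by an exact match of the sequence, written 5′ to 3′ on the plus strand. Capitals mark the TATA box as TATAAA, the AP-1 motif as TGANTCA, the GC box as GGGCGG and an E-box as CACGTG, each searched on both strands. In the shared window of S100a1 and S100a13 capitals mark instead the 104 bases between the 2 starts, which face away from each other at 90318252 (S100a1, minus strand) and 90318357 (S100a13, plus strand).
S100a1 and S100a13, chr3:90318107-90318406: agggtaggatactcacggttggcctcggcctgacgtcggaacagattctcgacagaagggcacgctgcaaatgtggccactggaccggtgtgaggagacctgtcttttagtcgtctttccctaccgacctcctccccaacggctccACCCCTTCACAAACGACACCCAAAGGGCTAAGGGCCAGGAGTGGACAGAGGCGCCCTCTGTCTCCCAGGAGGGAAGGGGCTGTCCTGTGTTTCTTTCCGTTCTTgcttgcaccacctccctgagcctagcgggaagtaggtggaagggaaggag
S100a3, chr3:90403886-90404185: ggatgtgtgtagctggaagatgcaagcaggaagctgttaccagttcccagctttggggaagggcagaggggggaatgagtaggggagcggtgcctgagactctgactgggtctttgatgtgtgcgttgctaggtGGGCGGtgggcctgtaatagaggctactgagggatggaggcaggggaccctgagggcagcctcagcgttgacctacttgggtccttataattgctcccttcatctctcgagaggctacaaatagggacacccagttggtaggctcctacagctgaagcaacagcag
S100a4, chr3:90407442-90407741: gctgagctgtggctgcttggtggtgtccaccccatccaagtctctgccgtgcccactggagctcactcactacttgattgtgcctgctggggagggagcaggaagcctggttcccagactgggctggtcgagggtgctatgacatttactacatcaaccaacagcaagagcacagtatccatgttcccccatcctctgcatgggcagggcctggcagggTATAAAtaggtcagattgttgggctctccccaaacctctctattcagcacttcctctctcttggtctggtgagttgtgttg
S100a11, chr3:93324168-93324467: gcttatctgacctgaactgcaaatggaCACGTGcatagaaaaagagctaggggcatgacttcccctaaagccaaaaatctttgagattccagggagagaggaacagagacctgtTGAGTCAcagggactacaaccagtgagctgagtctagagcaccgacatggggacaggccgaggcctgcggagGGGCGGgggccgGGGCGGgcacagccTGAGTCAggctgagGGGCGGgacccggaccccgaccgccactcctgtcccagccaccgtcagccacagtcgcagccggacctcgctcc

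The window of S100a4 holds a TATAAA, which 13.62% of 32851 promoter windows hold. S100a3 has a GC box in the window shown, as do 35.66% of all windows, and no TATAAA there. The S100a11 window holds 2 further kinds of motif beside its GC boxes, the AP-1 motif (7.808% of all windows) and CACGTG (7.15%). The windows differed in CpG dinucleotides, with 15 in S100a11, 14 in S100a13, 11 in S100a1, 5 in S100a3 and 2 in S100a4, where the median of all windows was 7. S100a1 and S100a13 hold 0 of the 4 motifs. The members that rose and those that fell therefore both included windows richer and poorer in CpG than the median. S100a3 has 4 RefSeq starts and S100a16 has 2, while S100a10 is not in the promoter table, and the expression values do not separate starts.

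S100a3 had the largest fold change of the 9 genes. The protein binds zinc and calcium and is best known from the cuticle of the hair. Normalized counts were 32.2, 34.7 and 36.7 in the Rnf40+/+ libraries, from 27, 34 and 46 reads. In the Rnf40-/- libraries they were 230.4, 211 and 236, from 226, 202 and 250 reads. Every Rnf40-/- library lay far above every Rnf40+/+ library, and both groups were tight. The mean rose 6.53-fold, from 34.6 ± 2.25 to 226 ± 13.2 (SD, n = 3; log2 fold change 2.67, standard error 0.16, adjusted p = 1.75e-07, limma).

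S100a3 lies at 90404137 to 90406624 on the plus strand of chromosome 3 (mm9), and 1067 bases separate its end from the start of S100a4 on the same strand. S100a4 fell where S100a3 rose. In each library S100a3 was small beside its neighbour, with normalized counts equal to 0.178% ± 0.035 of those of S100a4 in Rnf40+/+ and 1.54% ± 0.054 in Rnf40-/- MEFs (SD, n = 3). No stretch of 50 bases of the S100a3 transcripts occurs in a transcript of another annotated protein-coding gene, and other genes were not searched.

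S100a4, known for binding non-muscle myosin IIA and for its use as a fibroblast marker, spans 90407692 to 90409967. Its normalized counts were 20958, 21274 and 16852 in Rnf40+/+ and 14422, 14099.6 and 15561 in Rnf40-/- libraries. The lowest Rnf40+/+ library was still above the highest Rnf40-/- library, although that one Rnf40+/+ library was nearer to them than to its own group. Levels fell to 0.746 of the Rnf40+/+ mean, from 19695 ± 2467 to 14694 ± 768 (SD, n = 3; log2 fold change -0.42, standard error 0.09, adjusted p = 0.00275, limma).

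S100a6, or calcyclin, binds the ubiquitin ligase adaptor CacyBP and several annexins. It had the most reads of the family, and by mean normalized count it stood at place 17 of 29955 genes in Rnf40+/+ and at place 10 in Rnf40-/- MEFs. Normalized counts were 75140.3, 67083 and 60014 in Rnf40+/+ and 64151, 65975 and 69078 in Rnf40-/- libraries. All 3 Rnf40-/- libraries fell inside the range of the Rnf40+/+ libraries. On the log2 scale the change was -0.016 (adjusted p = 0.903, limma), with a standard error of 0.097 and a 95% interval from -0.23 to 0.19. Its sign turned to 0.032 with upper-quartile scaling, so no direction is given.

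S100a10 and S100a11 bind annexins A2 and A1 at membranes, and S100a10 (p11) is unusual in the family because it holds its open form without calcium. They lie next to each other on the plus strand, S100a11 at 93324410 to 93330209 and S100a10 at 93359002 to 93368565, 28792 bases apart and 2824766 bases beyond the end of S100a9. S100a10 had normalized counts of 5575, 5689 and 5721 in Rnf40+/+ and of 6761, 5969 and 6972 in Rnf40-/- libraries. Each Rnf40-/- library was above the Rnf40+/+ libraries, which lay close together, but one of them only narrowly. The rise was 1.16-fold (log2 fold change 0.21, standard error 0.07, adjusted p = 0.0257, limma). This call was lost without Rnf40+/+ replicate 1 (adjusted p = 0.0592), without Rnf40-/- replicate 1 (0.119) and without Rnf40-/- replicate 3 (0.108).

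S100a11 went the other way. Its normalized counts were 19015, 19767 and 18646 in Rnf40+/+ and 14864, 14944 and 15772 in Rnf40-/- libraries, groups that were far apart relative to their spread. Levels fell to 0.794 of the Rnf40+/+ mean (log2 fold change -0.33, standard error 0.07, adjusted p = 0.00127, limma). Of its 50-base stretches, 23.38% also occur in Gm7665, which has no row in the table, so reads of S100a11 may have been split or lost, and its level is uncertain to that extent. The ratio of S100a10 to S100a11 normalized counts was 0.296 ± 0.0098 in Rnf40+/+ and 0.432 ± 0.029 in Rnf40-/- libraries (SD, n = 3), with no overlap. This ratio is taken within each library and does not depend on its size factor.

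S100a1 and S100a13 are divergent neighbours whose annotated ends lie 42 bases apart. S100a1 is best known from heart and skeletal muscle, where it binds the ryanodine receptor and the SERCA calcium pump, and S100a13 takes part in the release of FGF1 and interleukin-1 alpha, which lack a signal peptide. S100a1 had normalized counts of 235, 263 and 250.0 in Rnf40+/+ and of 399.7, 364 and 454 in Rnf40-/- libraries. S100a13 had 591, 574 and 464 in Rnf40+/+ and 949, 791 and 1058 in Rnf40-/- libraries. For both genes all Rnf40-/- libraries were above all Rnf40+/+ libraries, and the second Rnf40-/- library was the lowest of its group.

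The rise was 1.63-fold for S100a1 (log2 fold change 0.70, standard error 0.11, adjusted p = 0.000296, limma). That of S100a13 was 1.72-fold (log2 fold change 0.78, standard error 0.12, adjusted p = 0.000227, limma). The ratio of S100a13 to S100a1 normalized counts was 2.18 ± 0.33 in Rnf40+/+ and 2.29 ± 0.11 in Rnf40-/- libraries (SD, n = 3). These ranges overlapped, so a difference between the rises of the 2 genes was not seen. Their gene bodies do not overlap in the annotation.

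S100a16, a widely expressed member linked to fat cell formation, lies at 90341176 to 90347073 on the plus strand. It had normalized counts of 396, 443 and 424 in Rnf40+/+ and of 319, 310.0 and 381 in Rnf40-/- libraries. The highest Rnf40-/- library came close to the lowest Rnf40+/+ library without reaching it. Levels fell to 0.800 of the Rnf40+/+ mean (log2 fold change -0.33, standard error 0.11, adjusted p = 0.0246, limma). The call was lost without Rnf40+/+ replicate 2 (adjusted p = 0.0836), without Rnf40-/- replicate 1 (0.0951) and without Rnf40-/- replicate 2 (0.10).

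S100b, a protein of glia, Schwann cells and melanocytes, was the lowest of the 9 genes. It had 8, 9 and 16 reads in the Rnf40+/+ and 33, 36 and 31 reads in the Rnf40-/- libraries, or normalized counts of 9.55, 9.18 and 12.8 against 33.6, 37.6 and 29.3. The groups were apart, but the Rnf40+/+ values rest on few reads. The mean rose 3.19-fold, from 10.5 ± 1.98 to 33.5 ± 4.15 (SD, n = 3; log2 fold change 1.59, standard error 0.32, adjusted p = 0.00157, limma). S100b lies at 75716598 to 75723904 on the plus strand of chromosome 10, and its last 1731 bases overlap the end of Dip2a on the minus strand. The strand setting used for counting is not given in the sources used here, so reads of the overlap may belong to either gene. Dip2a moved the other way, with normalized counts of 743, 798 and 816 in Rnf40+/+ and 653, 655 and 589 in Rnf40-/- libraries (log2 fold change -0.31, adjusted p = 0.00722, limma).

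Markers of cells in which S100b is known were read beside it. Of 8 Schwann cell markers 5 were tested and 0 were called, and their summed normalized counts ranged from 112 to 178 in Rnf40+/+ and from 173 to 196 in Rnf40-/- libraries. Of 6 melanocyte markers 3 were tested and all 3 were called higher, where 23.3% of all genes tested were. The calls of Tyr (adjusted p = 0.0469, limma) and Pmel (0.0493) were just under the threshold, and that of Mitf was at 0.0297. The sums of the list ran from 198 to 268 and from 300 to 353, while Dct and Tyrp1 were at 0 in every library. The part of these cells in the rise of S100b was not tested. In bulk RNA, more cells of a type and more RNA per cell cannot be told apart.

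**Figure D2:**
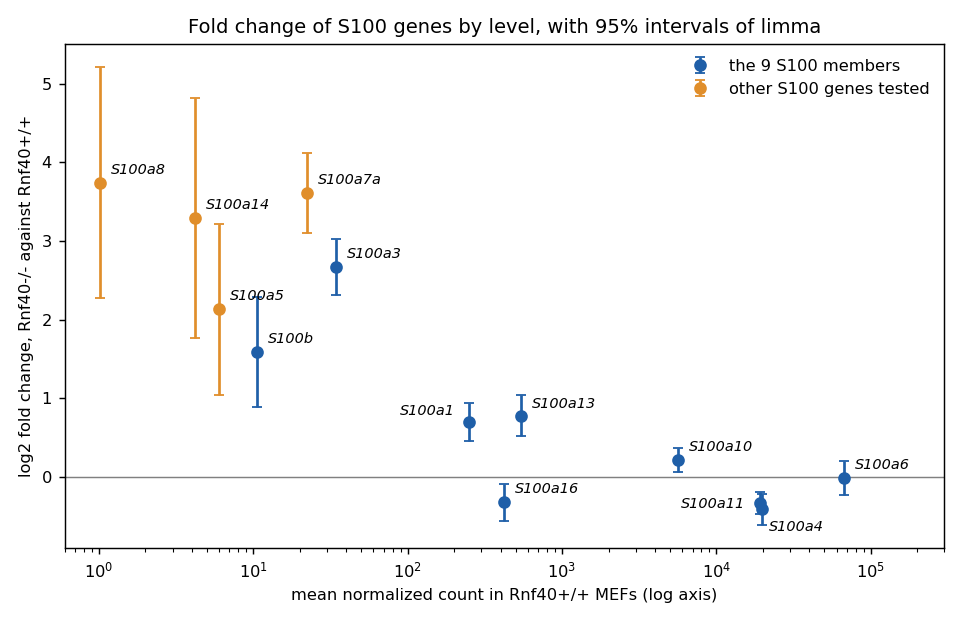
Log2 fold change of Rnf40-/- against Rnf40+/+ (y axis, with the 95% interval of limma) against the mean normalized count in Rnf40+/+ MEFs (x axis, log scale) for the 9 members (blue) and 4 other S100 genes that were tested (orange). S100a3 (2.67) and S100a7a (3.61), low in Rnf40+/+ MEFs, reached the filter in all 6 libraries. The 4 genes above 5000 lie between -0.42 and 0.21. S100a14, S100a5, S100a8 and S100b passed the filter only through the Rnf40-/- libraries. They could be shown only because they were higher there, so their rises say nothing about low genes in general.

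Levels were compared between the genes as normalized counts per kilobase of the longest transcript. In Rnf40+/+ MEFs the order from high to low was S100a6 (93759 ± 10526), S100a4 (39548 ± 4953), S100a11 (37461 ± 1118), S100a10 (8265 ± 112), S100a13 (759.6 ± 96.6), S100a16 (374 ± 20.6), S100a1 (368 ± 20.6), S100a3 (48.5 ± 3.16) and S100b (7.08 ± 1.33; SD, n = 3). The ranges of S100a4 and S100a11 overlapped, as did those of S100a16 and S100a1, so these neighbours in the order were not told apart. By the mean length of the annotated transcripts in place of the longest, S100a16 (478 to 533) lay above S100a1 (375 to 419.6) without overlap. The 4 genes at the top held 99.1% of the summed level in Rnf40+/+ and 98.4% in Rnf40-/- MEFs. The family in these fibroblasts thus consisted almost wholly of S100a6, S100a4, S100a11 and S100a10.

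In Rnf40-/- MEFs the per-kilobase levels were 92353 ± 3465 for S100a6, 29732 ± 984 for S100a11, 29507 ± 1542 for S100a4 and 9587 ± 772 for S100a10. Below them came S100a13 (1304 ± 187), S100a1 (599.8 ± 66.9), S100a3 (317 ± 18.6), S100a16 (299 ± 34.5) and S100b (22.6 ± 2.80; SD, n = 3). S100a1 and S100a3 stood above S100a16 in the order of means, which they had been below in Rnf40+/+ MEFs, though the ranges of S100a3 and S100a16 overlapped. By mean transcript length S100a16 (406) stayed above S100a3 (317) in Rnf40-/- MEFs, so the order of these 2 genes rests on the length used. The share of S100a6 in the summed level was 51.9% ± 1.88 in Rnf40+/+ and 56.4% ± 0.74 in Rnf40-/- libraries (SD, n = 3). The ratio of S100a4 to S100a6 normalized counts was 0.292 ± 0.022 and 0.221 ± 0.0065 (SD, n = 3), without overlap between the genotypes. The 9 genes together took between 0.487% and 0.599% of the reads of Rnf40+/+ and between 0.534% and 0.566% of those of Rnf40-/- libraries, ranges that overlapped.

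A further 8 S100 genes are in the table, all low in Rnf40+/+ MEFs, and S100a7a was the only one that reached the filter in all 6 libraries. S100a7a is the mouse relative of psoriasin, a secreted protein of inflamed skin. Its normalized counts were 22.7, 28.6 and 15.2 in Rnf40+/+ and 235, 271 and 318 in Rnf40-/- libraries, which lay far above the Rnf40+/+ libraries. The rise was 12.4-fold (log2 fold change 3.61, standard error 0.23, adjusted p = 2.76e-07, limma).

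S100a14, an epithelial member, had normalized counts of 0, 3.06 and 9.58 in Rnf40+/+ and of 36.7, 31.3 and 32.1 in Rnf40-/- libraries (adjusted p = 0.00218, limma). S100a5, known from olfactory neurons, had 9.55, 6.12 and 2.40 against 40.8, 17.7 and 26.4 (adjusted p = 0.00397, limma). S100a8, a subunit of the calprotectin of neutrophils and inflamed skin, had 0, 3.06 and 0 against 29.6, 16.7 and 17.0 (adjusted p = 0.000718, limma). These 3 genes were higher in every Rnf40-/- library, but they passed the filter only through that group, and under the other settings the fitted log2 fold change ran from 1.66 to 4.52 for S100a14 and from 1.48 to 6.01 for S100a8. S100a2 had no read in Rnf40+/+ and 3.06, 7.31 and 3.78 normalized counts in Rnf40-/- libraries, from 3, 7 and 4 reads. Their mean was 4.82-fold a floor of 3 reads over the 3 Rnf40+/+ libraries, but it rests on few reads and the gene was not tested. S100g had 1.19, 1.02 and 0 against 28.6, 14.6 and 3.78 normalized counts, and the other 2 genes, S100a9 and S100z, had a single read each. S100a9, the partner of S100a8 in calprotectin, thus had 0 reads in 5 of 6 libraries.

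**Figure D3:**
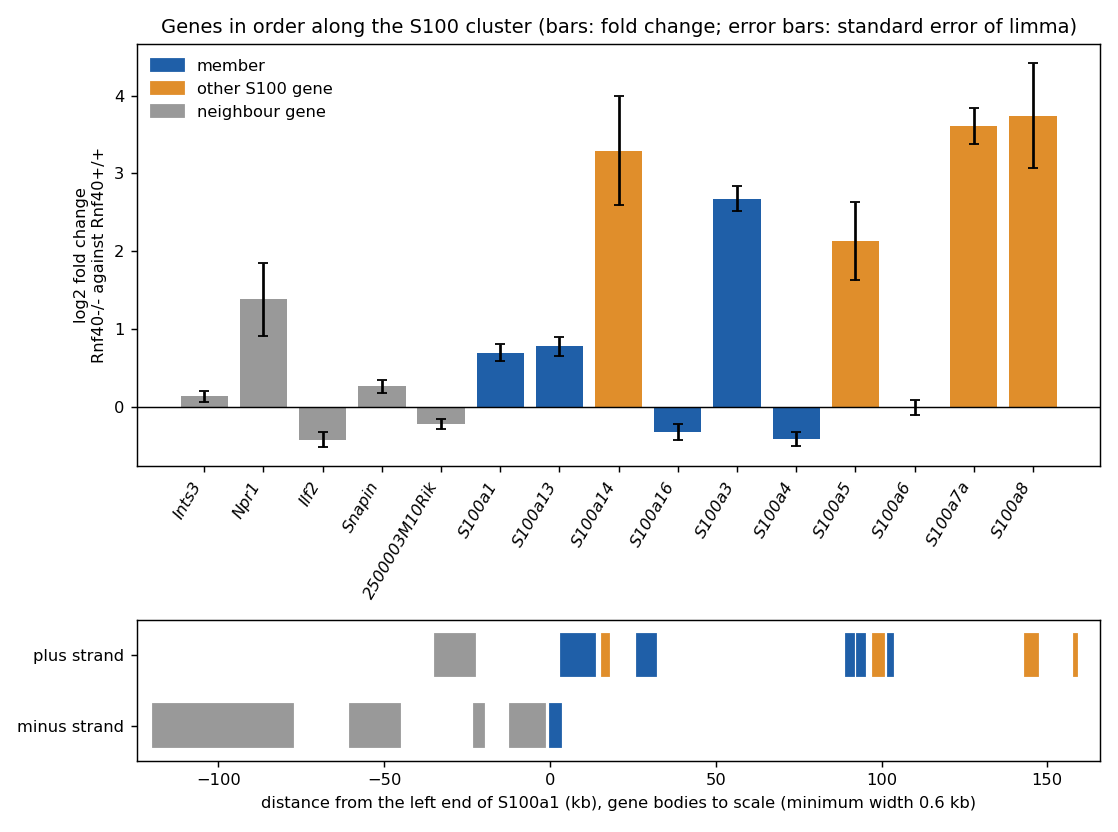
Log2 fold changes (upper panel, bars with the standard error of limma) of the tested genes in order along the S100 cluster of chromosome 3, and their gene bodies by strand (lower panel, distance in kb from the left end of S100a1). Blue marks members, orange other S100 genes and grey genes outside the family. S100a4 at -0.42 stands next to S100a3 at 2.67. S100a14, S100a5, S100a8 and Npr1 passed the filter only through the Rnf40-/- libraries.

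From S100a1 to S100a9 the cluster spans 184688 bases. Next to each other in it, S100a3 (2.67) rose and S100a4 (-0.42) fell, both at the filter in every library. S100a16 (-0.33) lay between S100a14 and S100a3, S100a4 between S100a3 and S100a5, and S100a6, which was not called, between S100a5 and S100a7a. S100a14 and S100a5 passed the filter only through the Rnf40-/- libraries, so they could enter only as rises. The call of S100a16 was lost when some single library was left out. Neighbours outside the family were taken as the nearest genes on either side of each run of S100 genes. These 27 genes include those around S100b on chromosome 10. Of the 27, 12 were tested, 5 rose and 3 fell, where 23.3% and 24.1% of all genes tested did. Npr1, 1 of the 5, had 4.90 and 14.0 normalized counts on average and passed the filter only through the Rnf40-/- libraries. The largest called fold change among those that kept their call under every setting was that of Tchh (trichohyalin, a fused-type S100 protein of the hair follicle), from 99.0 ± 27.4 to 265 ± 20.7 normalized counts (SD, n = 3; log2 fold change 1.44, adjusted p = 4.86e-05, limma). Tchh lies on the side of S100a11 away from S100a10. Near S100a1 on chromosome 3, Ilf2 fell (-0.43). Beside S100b on chromosome 10, Prmt2 rose (0.34), Dip2a fell and Pcnt was called higher. The calls of Npr1, Pcnt, Snapin and 2500003M10Rik were each lost when some single library was left out.

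Skin and cell type markers were read beside these genes, as several of them are known from epidermis and hair. For each list, the shares over all genes tested were 23.3% that rose and 24.1% that fell. Of 8 keratinocyte markers 6 were tested and 2 rose, Ivl (involucrin, itself a gene of the epidermal differentiation complex) from 94.0 to 1050.0 and Dsp (desmoplakin) from 152 to 904 normalized counts. The summed level of the list ranged from 276 to 401 in Rnf40+/+ and from 1966 to 2227 in Rnf40-/- libraries. Krt5, Krt14, Krt10 and Pkp1 were tested and not called, with mean normalized counts of 9.29 and 12.5 for Krt5 and of 10.1 and 8.10 for Krt14. Trp63, the p63 gene of basal keratinocytes, was too low to be tested, with 2.04 to 3.58 normalized counts in Rnf40+/+ and 7.55 to 21.9 in Rnf40-/- libraries, and Krt1 was at 0 in all Rnf40-/- libraries. Of 12 fibroblast markers 10 fell and 0 rose, as S100a4 fell. Their summed levels ran from 728262 to 817796 in Rnf40+/+ and from 434384 to 435744 in Rnf40-/- libraries. Most of these markers are abundant, and 66.6% of all genes with a mean above 5000 were called in either direction. Of 8 chondrocyte markers 4 were tested and 3 fell (sums of 1343 to 1781 against 569 to 659.6). Of 8 markers of myeloid cells, from which S100a8 is known, 5 were tested. Ptprc rose, Lyz2 fell and 3 were not called. The myeloid sums were 5025 to 8737 against 3066 to 3386, most of it Lyz2 (means of 5314 and 2264). Of 8 markers of striated muscle, from which S100a1 is known, 2 were tested and 1, Des, fell. Their sums ran from 152 to 1469 in Rnf40+/+ and from 76.2 to 91.8 in Rnf40-/- libraries, with Myod1 at 0 throughout. Within the Rnf40+/+ libraries alone, Actc1, which was not tested, ran from 7.99 to 937 and Des from 114 to 431. The part of any of these cell types in the changes of S100 genes was not tested.

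The genes whose profile over the 6 libraries was most like that of S100a3 were 2210023G05Rik, Nat8l and Scn3b, at root mean square distances of 0.106, 0.112 and 0.132 between centred log2 values, among 15527 genes compared. Those most like S100a4 were Dpy30, Mbtps2 and Plaur, at 0.0395, 0.0422 and 0.0426. Plaur, the urokinase receptor, fell by 0.41 on the log2 scale. Nearly all of the profile of S100a3 is its difference between genotypes, so the likeness mainly says that these genes rose by a similar amount, as Nat8l did by 2.62.

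Partner genes of S100 proteins were read from 7 lists with 65 genes, written from general knowledge, of which 55 were tested. Among them 14 rose (25.5%), 18 fell (32.7%) and 23 were not called, with a median log2 fold change of -0.08 against -0.0035 for all genes tested. Among all genes tested 23.3% rose and 24.1% fell. Trpv6, counted among the 14, and Ryr2, counted among the 18, passed the filter only through the group where they were higher.

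**Figure D4:**
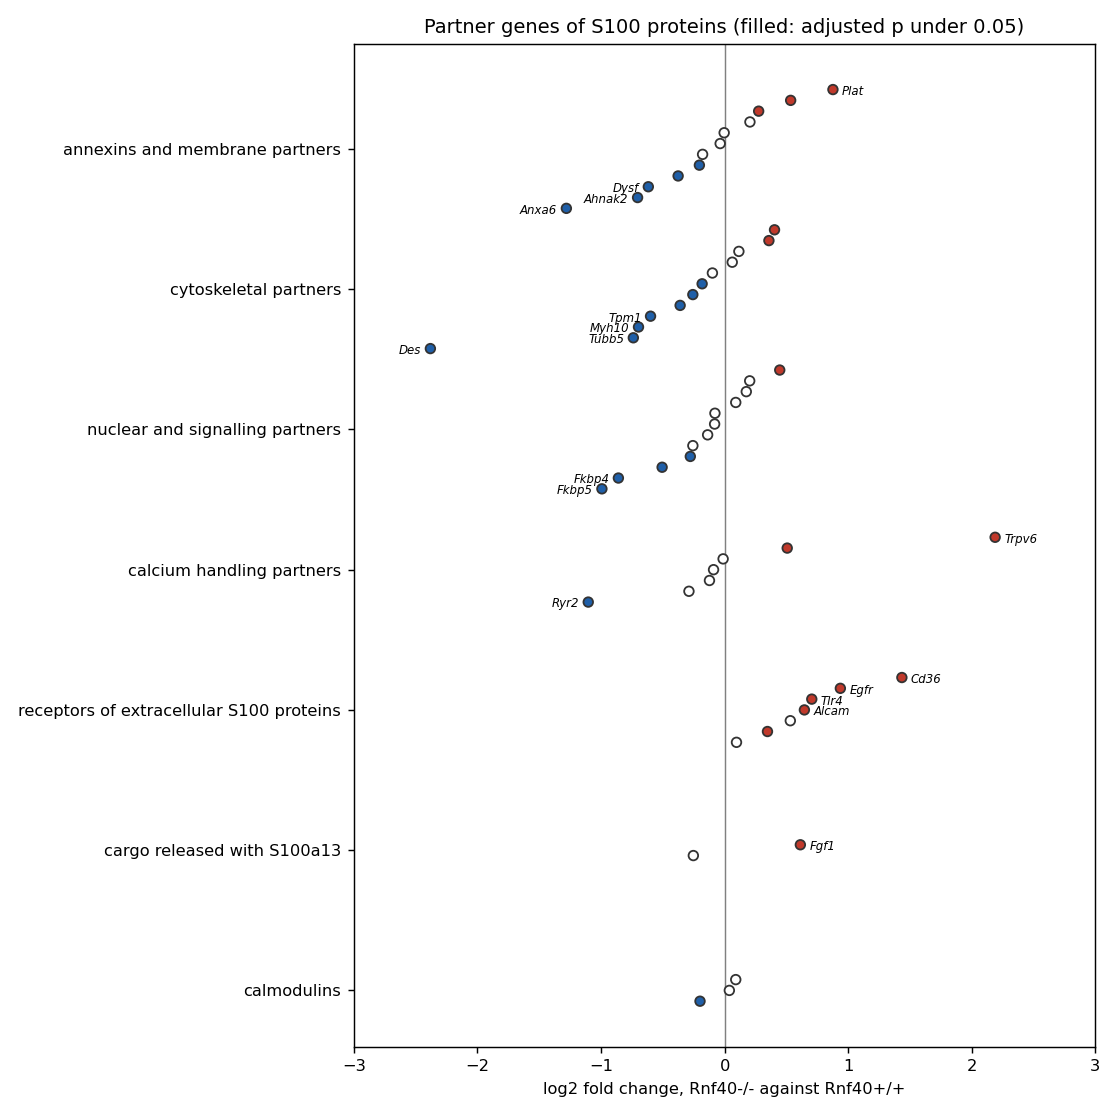
Log2 fold changes (x axis) of the 55 tested partner genes of S100 proteins in 7 lists, 1 circle per gene; red circles rose and blue circles fell with an adjusted p under 0.05, and open circles were not called; Trpv6 and Ryr2 passed the filter only through the group where they were higher. Genes called with an absolute log2 fold change of at least 0.58 are named. In the receptor list 5 of 7 circles are red and 0 are blue, where 23.3% of all genes tested rose and 24.1% fell.

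Of 12 annexins and membrane partners tested, 3 rose and 5 fell, where 23.3% and 24.1% of all genes tested did. Anxa2, the partner of S100a10, fell from 28137 ± 925 to 24457 ± 1650.2 normalized counts (log2 fold change -0.20, adjusted p = 0.0408, limma), while S100a10 rose. Anxa1, the partner of S100a11, fell from 31691 ± 2184 to 24384 ± 282 (-0.38, adjusted p = 0.00136), in the same direction as S100a11. The largest change was that of Anxa6, a membrane and vesicle annexin, from 10369 ± 254 to 4277 ± 354 (-1.28, adjusted p = 8.36e-08). Ahnak, the large scaffold bound by S100a10 and annexin A2, had 31135 ± 815 and 31070.3 ± 1124 and was not called, whereas its relative Ahnak2 (-0.70) and Dysf (-0.62), the membrane repair protein dysferlin, fell. The plasminogen activators Plat (0.88) and Plau (0.53) rose. Plasminogen itself (Plg) had no read in any library.

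Of 12 cytoskeletal partners tested, 2 rose and 7 fell, where 23.3% and 24.1% of all genes tested did. Myh9, the myosin IIA heavy chain bound by S100a4, fell from 40116 ± 2499 to 31226 ± 429 normalized counts (log2 fold change -0.36, adjusted p = 0.00200, limma), as S100a4 did. Myh10, the heavy chain of myosin IIB, fell by 0.70, the tropomyosin gene Tpm1 by 0.60 and the tubulin gene Tubb5 by 0.74 on the log2 scale. Vim fell by 0.26 and Iqgap1, a scaffold bound by several S100 proteins, rose by 0.40. Desmin (Des) had the largest fall, -2.38, but 1 Rnf40+/+ library held 431 normalized counts and its fold change was -1.77 without that library, replicate 1.

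Of 12 nuclear and signalling partners 1 rose and 4 fell, where 23.3% and 24.1% of all genes tested did. The co-chaperones Fkbp4 (-0.86) and Fkbp5 (-0.99), to which S100a1 and S100a6 bind, fell, and so did Mdm2 (-0.28), the ligase of p53. Trp53 (2088 ± 46.7 against 1978 ± 41.0) and Cacybp, the calcyclin-binding protein (2153 ± 243 against 2029 ± 112), were not called.

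Receptors of secreted S100 proteins were 7, all tested, of which 5 rose and 0 fell, with a median log2 fold change of 0.65. Among all genes tested 23.3% rose and 24.1% fell, and this short list was written with earlier results of these data known. Egfr rose from 1855 ± 141 to 3549 ± 169 normalized counts (0.94, adjusted p = 1.03e-06, limma), and Cd36, a fatty acid receptor, from 56.0 ± 1.74 to 153 ± 11.3 (1.44, adjusted p = 1.81e-05). Tlr4, a receptor of S100a8 and S100a9, rose by 0.71, Alcam, a receptor of S100b, by 0.65, and Bsg (basigin) by 0.35. Ager, which encodes RAGE, had 35.8 ± 8.77 and 51.5 ± 7.78 normalized counts and was not called (adjusted p = 0.110, limma). Itgb1 was not called either (0.10).

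Of 7 tested genes for calcium handling, 5 reached the filter in every library. Of these Stim1 rose and the others were not called, where 23.3% of all genes tested rose and 24.1% fell. Stim1, the calcium sensor of the endoplasmic reticulum, rose from 726 ± 104 to 1026 ± 26.5 normalized counts (log2 fold change 0.51, adjusted p = 0.00106, limma). Atp2a2, the SERCA pump that these cells had at a high level, was not called (6209 ± 355 against 5831 ± 91.8). Trpv6, a channel bound by S100a10, was called higher (2.19) but reached the filter in 0 of 3 Rnf40+/+ libraries (6 or 7 reads against 23 to 45), so it was tested only through the group where it was high. Ryr2, called lower (-1.10), likewise passed only through the Rnf40+/+ libraries, and its call was lost under 6 of 14 other settings. Of the cargo released with S100a13, Fgf1 rose by 0.61 from 33.9 ± 2.54 normalized counts (adjusted p = 0.0441, limma), a call lost under 9 of 15 other settings, among them each of the 6 in which 1 library was left out. Il1a was below the filter and Sphk1 was not called. Among the calmodulins, calcium sensors of the same EF-hand fold, Calm3 fell by 0.20 on the log2 scale and Calm2 was not called.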

How the data were processed

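RNA-seq libraries of 3 Rnf40+/+ and 3 Rnf40-/- MEF samples were analysed from 1 table of values per gene. The deposited signal is the read count of a gene divided by a DESeq size factor for each library, as the authors made it. The submitters' processing notes name Bowtie2 (2.1.0), DESeq (1.14.0) and mm9, with a directional library kit, while the counting tool and strand setting are not given in the sources used here. Every positive value was a whole multiple of the value of 1 read (100%, tolerance 0.001), so the reads were recovered, and 7410 genes had none.

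Normalized counts were tested as log2(value + 1) with limma (3.58.1, eBayes with trend, genotype only), after filterByExpr of edgeR (4.0.16) on the recovered reads. Alternatives were the quasi-likelihood test of edgeR, DESeq2 (1.42.0), TMM and upper-quartile scaling, no filter, 10 reads in every library, pseudocounts of 0.1 and 10, a replicate block, mean transcript length and leaving out each library. With 3 against 3 libraries an exact permutation test cannot give a p below 0.1, so none was run. The tests were checked on simulated data. Libraries of a genotype differed beyond sampling noise (chi-square per gene of 5.39 or more), so none was a duplicate. R (4.3.3) and Python (3.11.15) were used, with positions from the GENCODE annotation of mm9.

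The members, and the lists of partners, neighbours and markers, were chosen with earlier results of these data known. The genes named are all S100 genes in the table, partners called with an absolute log2 fold change of at least 0.58 or known as the main partner of a member, called neighbours, list examples and the 3 genes nearest in profile to S100a3 and S100a4.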

Additional observations from a re-analysis of the deposited data

How the results depend on the processing

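Of 134 fold changes of the 9 members under other settings, 125 kept their direction and side of the threshold, 6 lost their call and 3 turned sign. The other filters and the replicate block leave a fold change as it is, so under them only a call could move. S100b is counted too, although it passed the filter only through the Rnf40-/- libraries. The 3 were all of S100a6, which was never called: 0.032 with upper-quartile scaling, and 0.065 without Rnf40+/+ replicate 1 and 0.0081 without Rnf40-/- replicate 1, in a range from -0.097 to 0.065 with each library left out. The 6 lost calls were of S100a10 and S100a16 with 1 library left out. edgeR and DESeq2 called the same 8 members. With at least 10 reads in every library S100b could not be tested, 1 member passed the stricter thresholds as higher in place of 2, and 1 of the other S100 genes was called higher in place of 4. Neighbours called higher numbered 3 in place of 5 with DESeq2 and 2 to 4 with a library left out. By mean transcript length the 4 most abundant members held 99.0% of the summed level in Rnf40+/+ MEFs in place of 99.1%.

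The replicate numbers are shared between genotypes, but libraries of the same number did not deviate together (r = -0.015, 0.026 and 0.022). Pairs of different numbers ran from -0.095 to 0.072. A weak pairing could go unseen in this way, and the origin of the replicates is not given. With the replicate block 5 members, S100b among them, were called higher and 3 lower, as without it. In this balanced design the block cannot move a fold change, so that of Rnf40 is -1.30 by construction. Upper-quartile scaling moved the median of all genes by 0.048 on the log2 scale. Depth limits S100b and the other S100 genes with few reads in Rnf40+/+ libraries.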
